A study of Homo sapiens with 6 samples.

Results

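The alpha, beta and gamma tubulin genes described here are the 10 rows of the deposited count table whose symbol is TUBA1A, TUBA1B, TUBA1C, TUBA4A, TUBB, TUBB2A, TUBB3, TUBB4B, TUBB6 or TUBG1, out of 19240 rows that name a gene. They comprise 4 alpha, 5 beta and 1 gamma tubulin, and all 10 were found and passed the filter on low counts. The series, by its title, is about PCK2, metabolic adaptation and tumor cell growth that does not need glucose. A549 cells, an established line from a human lung carcinoma, grew for 48 h either with glucose (25 mM) or with none, and 3 libraries of each group were made from cDNA primed at the poly(A) tail. No genetic change or other agent is named for either group. Separate cultures are not stated for the 3 libraries, so every p-value here speaks to the spread among them, and that spread could be technical. Libraries held 6701004 to 14259943 gene counts. Of 6 epithelial marker genes, KRT8 fell from 2091 to 921 CPM (a gene's count relative to the scaled library total) without glucose and KRT18 from 1370 to 736 CPM (group means; edgeR adjusted p = 0.00150 and 0.00473). KRT7 (1581 and 1848 CPM), KRT19 (34.8 and 24.6 CPM), EPCAM and CDH1 (3.09 to 7.88 CPM) did not pass. The 7 neuronal marker genes summed to 9.72 to 12.1 CPM per library, with GAP43 and DCX at a count of 0 throughout.

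Alpha and beta tubulin pair into the dimer from which microtubules are built, and gamma tubulin sits at the base of new microtubules, where it templates their growth. Cells hold several alpha and beta genes, called isotypes, whose proteins are much alike except for an acidic tail at the carboxyl end, which carries most of the chemical marks of microtubules. Cells also tune tubulin mRNA to the amount of free dimer: TTC5 reads the first residues of a tubulin chain as it leaves the ribosome, and with SCAPER it brings in the CCR4-NOT deadenylase, so that the mRNA is degraded. The isotypes also have many near copies and pseudogenes.

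The coding starts are shown because the residues read by TTC5 are encoded there. Each line gives the first 12 coding bases 5′ to 3′ from a GENCODE 29 transcript, with the codons after the start codon in capitals.
TUBA1B: atgCGTGAGTGC
TUBA4A: atgCGTGAATGC
TUBB: atgAGGGAAATC
TUBB2A: atgCGCGAGATC
TUBB3: atgAGGGAGATC
TUBG1: atgCCGAGGGAA
All 9 alpha and beta members had an arginine and a glutamate codon directly after the start, and so did all 18 alpha and beta tubulin genes of the table. TUBG1 did not, since a proline codon comes first there. TUBA1A and TUBA1C have the start printed for TUBA1B, TUBB4B has that of TUBB, and TUBB6 has that of TUBB3.

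The coding ends of the beta members differ, and 4 are shown because they encode the tails, in which these isotypes differ. Each line gives the last 60 coding bases before the stop codon, 5′ to 3′, with the final codon in capitals.
TUBB: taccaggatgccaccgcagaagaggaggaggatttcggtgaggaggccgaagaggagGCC
TUBB3: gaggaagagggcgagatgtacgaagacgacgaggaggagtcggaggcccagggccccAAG
TUBB4B: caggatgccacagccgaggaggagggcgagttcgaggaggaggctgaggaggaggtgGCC
TUBB6: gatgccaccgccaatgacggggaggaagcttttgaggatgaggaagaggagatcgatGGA
Among the alpha members, 97.2% of the aligned coding bases of TUBA1A and TUBA1B were identical. TUBB3, known as the neuronal beta tubulin and also found in many carcinomas, is the only one of these 4 whose final codon encodes lysine.

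Without glucose the tubulin transcripts were lower. Of the 10 members 8 fell, 0 rose and 2 (TUBA1A and TUBB2A) did not pass the edgeR quasi-likelihood test at an adjusted p of 0.05. Of the 11886 genes tested 10.7% fell, 11.6% rose and 22.3% changed in either direction. No member had a mean above that of the cells with glucose, so 0 were higher at an unadjusted p under 0.05 and 0 by DESeq2 as well. The members' median log2 fold change, without minus with glucose, was −0.90, against 0.02 over all genes tested. For 9 of the 10 members all 3 libraries without glucose lay below all 3 with glucose, as they did for 19.4% of all genes tested, with 21.0% the other way round. The members were chosen with earlier results of these data known, so these counts describe them. CPM is relative to all gene counts of a library: fewer transcripts in each cell and fewer cells with high levels cannot be told apart in these bulk samples.

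**Figure D1:**
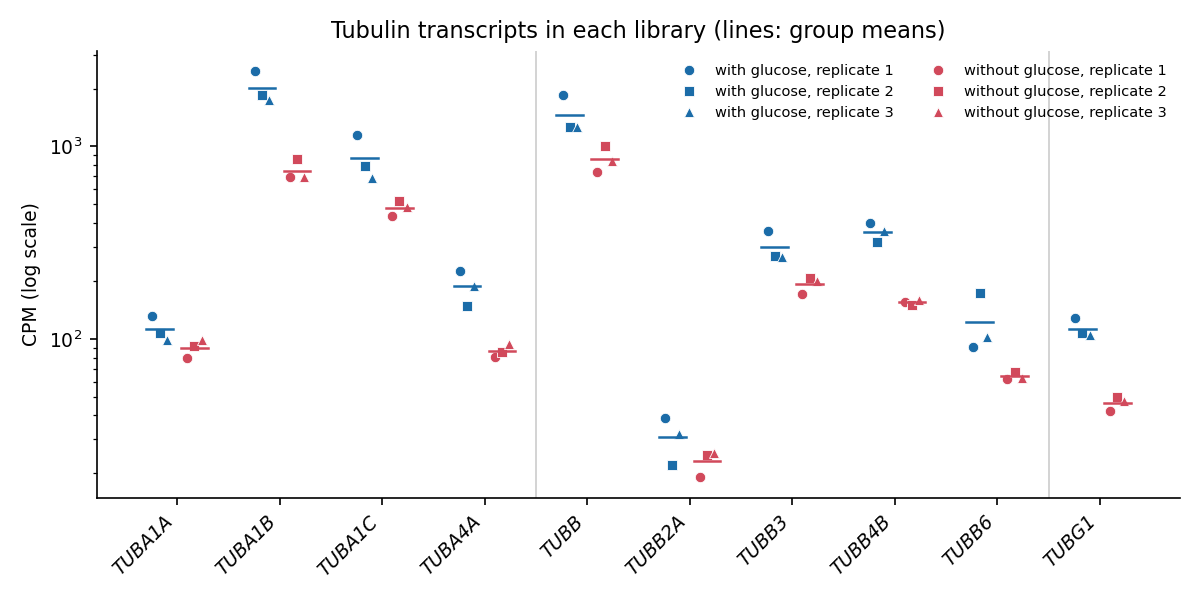
Level of each of the 10 tubulin genes in each of the 6 libraries, in CPM on a logarithmic axis; symbols mark the replicate number, colors the group, and horizontal lines the group means, with vertical lines between alpha, beta and gamma genes. The groups overlap for TUBB2A, and for the other members every library without glucose lies below every library with glucose.

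Alpha tubulin fell most in its most abundant isotype. TUBA1B (Entrez 10376), the broadly expressed alpha isotype, stood at 2465, 1858 and 1743 CPM in replicates 1, 2 and 3 with glucose and at 693, 862 and 690 CPM without it. Every library without glucose was less than the lowest library with glucose, and the log2 fold change was −1.43 ± 0.21 (SE; adjusted p = 6.21e-04, edgeR). TUBA1C (Entrez 84790), a close relative from the same gene cluster, read 1144, 789 and 689 CPM with glucose and 434, 519 and 487 CPM without. Its libraries also did not overlap (log2 fold change −0.86 ± 0.22, edgeR adjusted p = 0.0157), but the call missed the threshold without replicate 1 (adjusted p = 0.0554) or replicate 3 (0.0536) of the cells without glucose. TUBA4A (Entrez 7277), the alpha member least like the others in coding sequence (84.4% to 85.7% identical bases), had 226, 149 and 187 CPM with glucose and 80.4, 85.4 and 94.1 CPM without. It fell with a log2 fold change of −1.11 ± 0.21 (edgeR adjusted p = 0.00321). TUBA1A (Entrez 7846), best known from the developing nervous system, had 132, 107 and 99.2 CPM with glucose and 79.5, 91.3 and 98.1 CPM without. Its highest library without glucose lay just under the lowest with glucose, and it did not pass (log2 fold change −0.33 ± 0.20, edgeR adjusted p = 0.262).

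Among the 5 beta members TUBB4B had the lowest log2 fold change. TUBB (Entrez 203068), the main beta isotype of dividing cells, had 1840, 1258 and 1258 CPM with glucose and 735, 1005 and 844 CPM without. Replicate 1 with glucose stood above the other libraries of its group, and the groups did not overlap. The log2 fold change was −0.75 ± 0.22 (edgeR adjusted p = 0.0272). That call missed the threshold without replicate 1 with glucose (adjusted p = 0.0734) and without replicate 1 (0.0916) or replicate 3 (0.0864) of the cells without glucose. TUBB4B (Entrez 10383), a widely expressed beta isotype that is also found in cilia, had 399, 320 and 363 CPM with glucose and 155, 150 and 159 CPM without. The libraries without glucose were close together, below the lowest one with glucose, and the log2 fold change was −1.22 ± 0.19 (edgeR adjusted p = 9.55e-04).

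TUBB3 (Entrez 10381) had 365, 270 and 267 CPM with glucose and 172, 208 and 200 CPM without, which do not overlap. Its log2 fold change of −0.64 ± 0.21 passed narrowly (edgeR adjusted p = 0.0435), and on leaving out any single library it did not pass (adjusted p from 0.0569 to 0.127). TUBB6 (Entrez 84617), a beta isotype with a divergent tail, had 90.7, 173 and 103 CPM with glucose and 61.7, 67.0 and 62.9 CPM without. Replicate 2 with glucose was far above the rest, and without it the log2 fold change of −0.94 ± 0.25 (edgeR adjusted p = 0.0186) became −0.60 and did not pass (0.0973). TUBB6 also missed the threshold without replicate 1 (0.0557) or replicate 3 (0.0687) of the cells without glucose. TUBB2A (Entrez 7280) was the member with the lowest level, at 39.0, 22.0 and 32.2 CPM with glucose and 19.1, 24.9 and 25.5 CPM without. These ranges overlap, and TUBB2A did not pass (log2 fold change −0.42 ± 0.24, edgeR adjusted p = 0.232).

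TUBG1 (Entrez 7283), the main gamma tubulin of dividing cells, had 128, 107 and 105 CPM with glucose and 42.0, 49.7 and 47.6 CPM without. Its libraries without glucose all stood below 50 CPM, and those with glucose all stood above 100 CPM. The log2 fold change was −1.28 ± 0.20 (edgeR adjusted p = 8.67e-04). TUBA1B, TUBA4A, TUBB4B and TUBG1 passed in all 12 alternative fits tried.

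Replicate 1 with glucose was the library with the fewest gene counts, and 9 of the 10 members were highest there among the libraries with glucose; the exception was TUBB6. Without that library 6 members fell, and the number was 4 when replicate 1 or replicate 3 without glucose was left out. Of 10 genes of dividing cells, such as PLK1 and CDK1, all fell in the same comparison (median log2 fold change −1.73). Over all genes tested 10.7% fell and the median was 0.02. This list was chosen with earlier results of these data known, so its count only describes it. The groups of TOP2A, one of the list, overlapped (972 to 1744 CPM with glucose and 639 to 1076 CPM without). Among the libraries with glucose, 3 of the 10 dividing-cell genes were highest in replicate 1. How many of all genes tested were highest there was not worked out, so the 9 of 10 members have no such share beside them. The part of these dividing-cell genes in the tubulin result was not tested.

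Summed over members, the alpha transcripts went from 3196 ± 674 to 1404 ± 139 CPM (SD, n = 3 per group), the beta transcripts from 2266 ± 404 to 1296 ± 156 CPM, and the gamma transcript from 113 ± 12.5 to 46.4 ± 3.96 CPM. These are 2.28-fold, 1.75-fold and 2.44-fold higher sums with glucose. The ratio of alpha to beta counts was 1.45, 1.42 and 1.34 in the libraries with glucose and 1.13, 1.07 and 1.06 in those without, so alpha sums stood closer to beta sums in every library without glucose. Levels were not divided by length, so setting genes or sums side by side assumes 3' end counting. Oligo-dT priming alone does not ensure that, and where the reads fall was not tested. With glucose the order by mean level was TUBA1B, TUBB, TUBA1C, TUBB4B, TUBB3, TUBA4A, TUBB6, TUBG1, TUBA1A and TUBB2A. In that order TUBA1B and TUBB overlapped, as did TUBB4B and TUBB3, and each neighboring pair from TUBA4A to TUBA1A. Without glucose TUBB came first with 861 CPM and TUBA1B next with 748 CPM, again with overlapping libraries.

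Without glucose TUBA1B held a smaller share of the alpha pool, and TUBA1C and TUBA1A held larger ones. TUBA1B made up 62.1%, 64.0% and 64.1% of the counts of the 4 alpha members in replicates 1, 2 and 3 with glucose, and 53.9%, 55.3% and 50.4% without. TUBA1C made up 28.8%, 27.2% and 25.3% with glucose and 33.7%, 33.3% and 35.6% without. For TUBA1A the shares were 3.32%, 3.69% and 3.65% with glucose and 6.18%, 5.86% and 7.17% without. The groups do not overlap for any of these genes. TUBA4A held 5.91% ± 0.903 with glucose and 6.20% ± 0.697 without (SD, n = 3 per group), which overlap.

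Within the beta pool TUBB stayed the main isotype, at 63.7% ± 3.16 with glucose and 66.3% ± 2.50 without (SD, n = 3 per group), with overlapping libraries. TUBB4B took 14.6%, 15.7% and 18.0% of the counts of the 5 beta members with glucose and 13.6%, 10.3% and 12.3% without, so each library without glucose was lower. TUBB3 took 13.3%, 13.2% and 13.2% with glucose and 15.0%, 14.3% and 15.5% without, each higher. TUBB2A held 1.36% ± 0.262 and 1.79% ± 0.166, also without overlap, while TUBB6 overlapped (5.62% ± 2.62 and 4.96% ± 0.404). In all, 6 of the 9 shares had groups that did not overlap. Shares of a class make up a whole, so they are tied to each other and are not 9 separate results. A larger share is not a higher level: mean TUBA1C went from 874 to 480 CPM and mean TUBA1A from 113 to 89.6 CPM without glucose. For each of these 6 the 2-sided exact permutation test over libraries gave p = 0.1, the smallest it can give with 3 libraries against 3, so no share could pass 0.05. The same exact permutation test gave p = 0.8 for TUBA4A, 0.3 for TUBB and 0.8 for TUBB6, and 9 shares were compared.

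**Figure D2:**
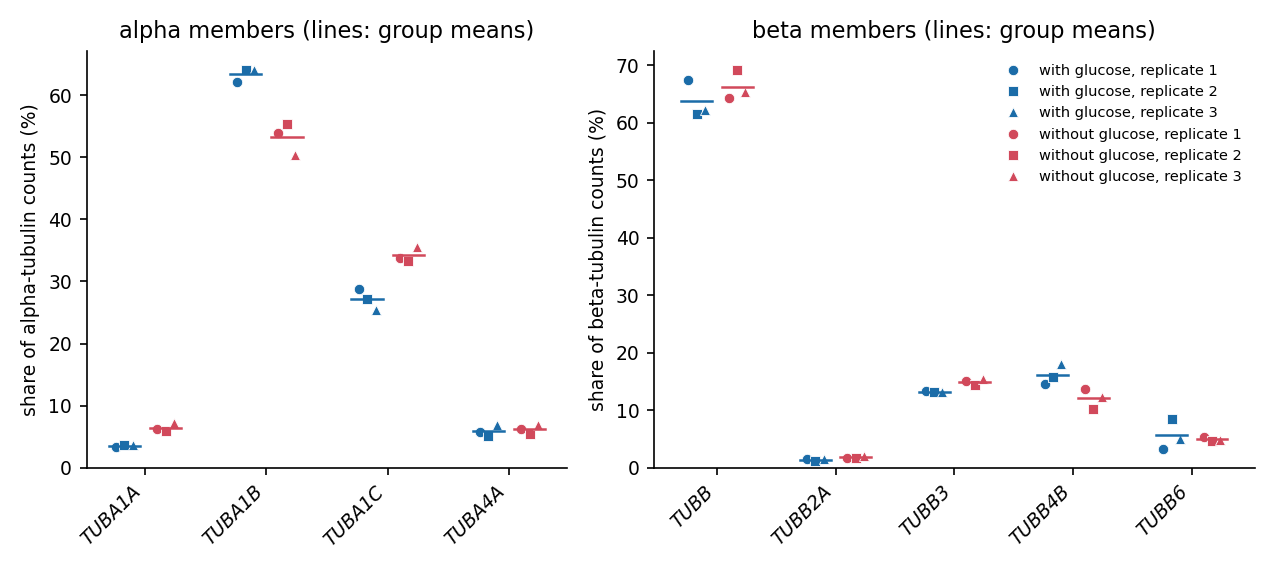
Share of each isotype in the counts of the 4 alpha members (left) and of the 5 beta members (right), in percent, with 1 symbol per library and horizontal lines at the group means. The mean of TUBA1B is 63.4% of alpha counts with glucose and 53.2% without, and that of TUBB4B is 16.1% and 12.1% of beta counts.

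The remaining tubulin genes of the table did not all follow the members. Of 12 such rows 6 passed the filter, and of these 3 rose, 2 fell and 1 (TUBAL3) did not pass. Over all genes tested 11.6% rose and 10.7% fell. TUBB2B, whose coding sequence shares 98.1% of its aligned bases with TUBB2A, had 41.7, 23.8 and 25.7 CPM with glucose and 49.0, 49.1 and 53.0 CPM without. All libraries without glucose were higher, and the log2 fold change was 0.74 ± 0.23 (edgeR adjusted p = 0.0401). The call did not pass with library totals as scaling (adjusted p = 0.0599), nor in 5 of the 6 fits with 1 library left out (0.0677 to 0.154); it passed without replicate 1 with glucose. Of the counts of the pair, TUBB2B held 51.7%, 52.0% and 44.4% with glucose and 72.0%, 66.3% and 67.5% without, a comparison chosen after the values were seen and not tested. The tails are shown for how little separates the pair, with the differing base in capitals.
TUBB2A: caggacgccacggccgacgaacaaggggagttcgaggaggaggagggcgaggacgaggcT
TUBB2B: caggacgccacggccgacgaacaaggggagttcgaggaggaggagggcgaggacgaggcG
The last 60 coding bases differ at 1 position.

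TUBG2, the second gamma tubulin, had 5.23, 4.13 and 4.85 CPM with glucose and 9.48, 12.7 and 9.58 CPM without, the reverse of TUBG1. It rose with a log2 fold change of 1.16 ± 0.27 (edgeR adjusted p = 0.00835). TUBG2 held 4.03% ± 0.348 of the counts of both gamma genes with glucose and 18.5% ± 1.81 without (SD, n = 3 per group), and TUBG1 thus remained the larger in every library. The coding sequences of the gamma genes are 94.7% identical, and their last 60 coding bases differ at 4 positions, in capitals here.
TUBG1: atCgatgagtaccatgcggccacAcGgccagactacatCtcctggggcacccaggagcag
TUBG2: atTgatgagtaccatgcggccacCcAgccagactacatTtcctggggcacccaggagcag

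TUBB4A, a beta isotype best known from the brain, had 6.22, 5.86 and 6.12 CPM with glucose and 1.61, 1.30 and 1.99 CPM without, and fell like TUBB4B (log2 fold change −1.88 ± 0.34, edgeR adjusted p = 0.00248). Delta and epsilon tubulin, which act at centrioles, moved in opposite directions. TUBD1 went from 23.8 ± 1.63 to 9.36 ± 2.11 CPM and TUBE1 from 4.18 ± 0.885 to 10.2 ± 1.87 CPM (SD, n = 3 per group). Their log2 fold changes were −1.34 ± 0.23 and 1.29 ± 0.29 (edgeR adjusted p = 0.00169 and 0.00717). TUBA3D and TUBA3E had a count of 0 in every library, below the floor of 3 counts, and TUBA3C, TUBB1 and TUBB8 had at most 3 counts in any library. TUBA8 had 4 to 18 counts per library and was not tested.

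**Figure D3:**
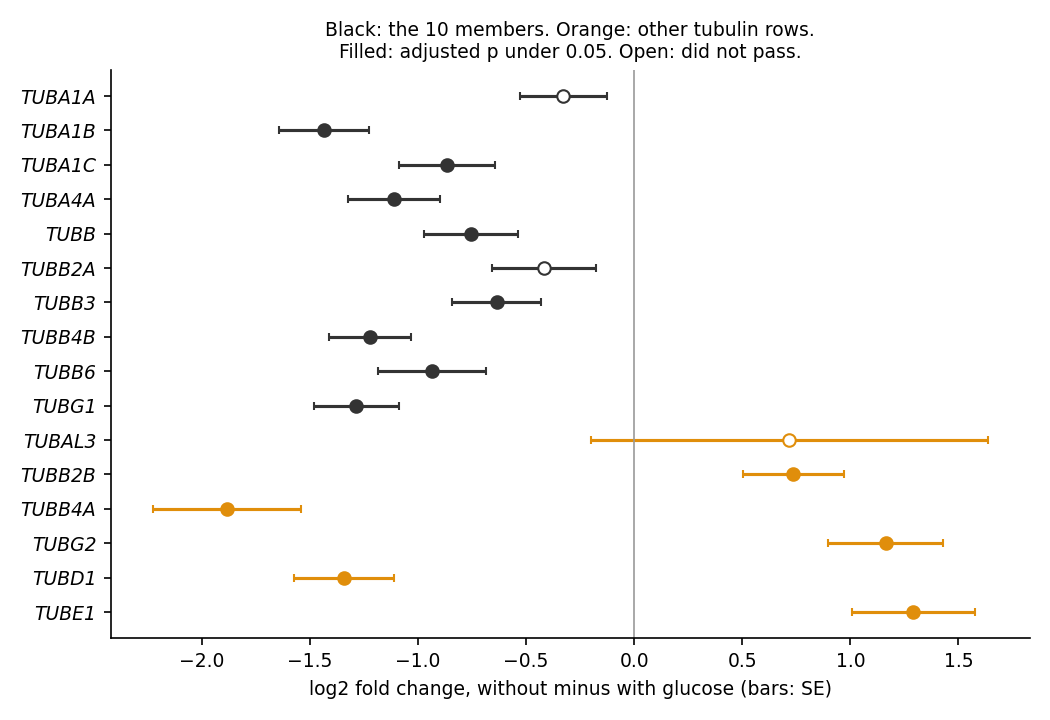
Fitted log2 fold change, without minus with glucose, of the 10 members (black) and the 6 other tested tubulin genes (orange), with bars of 1 SE; filled circles had an edgeR adjusted p under 0.05. The members lie between −1.43 and −0.33, while TUBB2B, TUBG2 and TUBE1 lie above 0.70, as does TUBAL3 (0.72), which did not pass.

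Close copies bear on how far single isotypes can be read. Reads with more than 1 alignment made up 18.4% to 22.2% of the table's reads in a library and are not in the gene counts, so an isotype with copies is counted from the stretches that are its own. For each member, windows of 50 bases were looked for in the GENCODE 29 transcripts of genes elsewhere in the genome, since the read length is not given in the sources used here. Over coding sequences 1.55% of the windows of TUBB6, 33.4% of those of TUBB, 75.8% of those of TUBA1B and 78.5% of those of TUBB2A stood letter for letter in another gene. Over the last 300 bases of the transcript, where 3' reads would gather if that end is used, the share was 0% for TUBA1C, TUBA4A, TUBB, TUBB3, TUBB6 and TUBG1, and also for TUBB2B, TUBB4A and TUBG2. It was 21.1% for TUBB2A (copies in TUBB2B and TUBB3), 14.7% for TUBA1A and 13.9% for TUBA1B (each in the other and in the pseudogene TUBAP2), and 7.17% for TUBB4B (TUBB4A, TUBB2A and others). With windows of 36 bases it was 7.17% for TUBA1C and at most 25.3% for any of these genes. By the last 300 bases, values of TUBA1A, TUBA1B, TUBB2A and TUBB4B are therefore the more uncertain. Should reads fall over the coding sequence, other genes share windows of 50 bases as well. The shares there were 79.75% for TUBB2B, 57.0% for TUBA1C, 35.7% for TUBG1 and 35.4% for TUBG2. Other genes overlap some members at their own place, such as STK16 at TUBA4A, RETREG3 at TUBG1 and another member, TUBA1C, at TUBA1A. Windows found only in such an overlapping gene were not counted as shared. The share given for TUBA1A thus leaves out windows it has in common with TUBA1C alone, and their coding bases are 95.9% identical. The strand setting of the counting is not given in the sources used here.

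Chaperones and cofactors of tubulin folding are given beside the 10.7% of all tested genes that fell and the 11.6% that rose, and their lists were not tested as such. The CCT chaperonin, the ring that folds actin and tubulin, had 2 of 8 subunits lower (median log2 fold change −0.53). CCT2 went from 491 ± 82.9 to 275 ± 7.56 CPM and CCT3 from 688 ± 124 to 385 ± 56.8 CPM (SD, n = 3 per group; edgeR adjusted p = 0.0107 and 0.0138). CCT2 did not pass without replicate 3 with glucose (0.0545), nor CCT3 when replicate 2 with glucose (0.0733) or replicate 3 of the other group (0.0714) was left out. The number lower was 4 without replicate 1 with glucose, 1 without replicate 2 or 3 with glucose or replicate 3 without it, and 6 by DESeq2. Prefoldin, which hands new chains to that ring, had 1 of 6 subunits higher and 1 lower. PFDN2 rose from 203 ± 30.8 to 415 ± 31.8 CPM (adjusted p = 0.00354, edgeR), and PFDN6 fell with a log2 fold change of −0.80 ± 0.24 (edgeR adjusted p = 0.0313), a call kept in 1 of the 6 fits that leave out a library (without replicate 2 with glucose). Of 7 genes for the tubulin cofactors, which join alpha to beta, and their regulator ARL2, 1 fell and 6 did not pass. TBCD, the cofactor that holds beta tubulin, had 45.6, 80.6 and 51.9 CPM with glucose and 21.2, 14.9 and 17.8 CPM without (log2 fold change −1.73 ± 0.25, edgeR adjusted p = 6.56e-04).

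Partners of TUBG1 were tested too, beside the 10.7% of all tested genes that fell and the 11.6% that rose. Their lists are short and were not tested against these shares. Of 10 genes of the gamma-tubulin ring complex and its adaptors, 0 rose and 0 fell by edgeR, with log2 fold changes from −0.87 to 0.38 and a median of −0.13. By DESeq2 0 of them were called in either direction, 0 had an unadjusted edgeR p under 0.05, and 1 was lower without replicate 1 with glucose. Augmin, which brings the ring to the sides of spindle microtubules, had 2 of 8 subunits lower. HAUS8, the subunit that binds microtubules, fell from 22.0 ± 3.87 to 6.83 ± 0.925 CPM, and HAUS7 from 33.3 ± 4.20 to 12.8 ± 2.63 CPM (SD, n = 3 per group; edgeR adjusted p = 5.32e-04 and 0.00121).

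Factors that read or mark tubulin chains mostly did not pass, which holds for most genes. Of all genes tested 10.7% fell, 11.6% rose and 22.3% changed in either direction, and the lists were not tested against these shares. TTC5 had 22.5, 22.8 and 23.9 CPM with glucose and 18.5, 26.9 and 30.1 CPM without, with overlapping groups (log2 fold change 0.13 ± 0.22, edgeR adjusted p = 0.711). SCAPER had 32.2, 48.1 and 54.5 CPM with glucose and 83.9, 51.0 and 82.0 CPM without, also overlapping (log2 fold change 0.68 ± 0.26, edgeR adjusted p = 0.0757), but it passed when replicate 2 without glucose was left out (0.0387). Of 12 genes of this autoregulation, CCR4-NOT subunits included, 0 passed by edgeR in either direction (4 at an unadjusted p under 0.05, and 1 lower, CNOT9, and 0 higher by DESeq2). Among 18 tested enzymes that add or remove marks on tubulin, 1 rose and 17 did not pass by edgeR. TTLL12 was lower by DESeq2 and with library totals, and VASH2 when replicate 1 without glucose was left out. The one that rose was SIRT2, a deacetylase with alpha tubulin among its substrates, with 14.0, 10.5 and 13.1 CPM with glucose and 23.0, 16.4 and 27.7 CPM without (log2 fold change 0.84 ± 0.25, edgeR adjusted p = 0.0288). SIRT2 did not pass when replicate 2 or 3 with glucose, or replicate 1 or 3 of the other group, was left out (adjusted p from 0.0680 to 0.130). TTL, the ligase that puts the final tyrosine back on alpha tubulin, did not pass (log2 fold change −0.22 ± 0.21, edgeR adjusted p = 0.484).

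**Figure D4:**
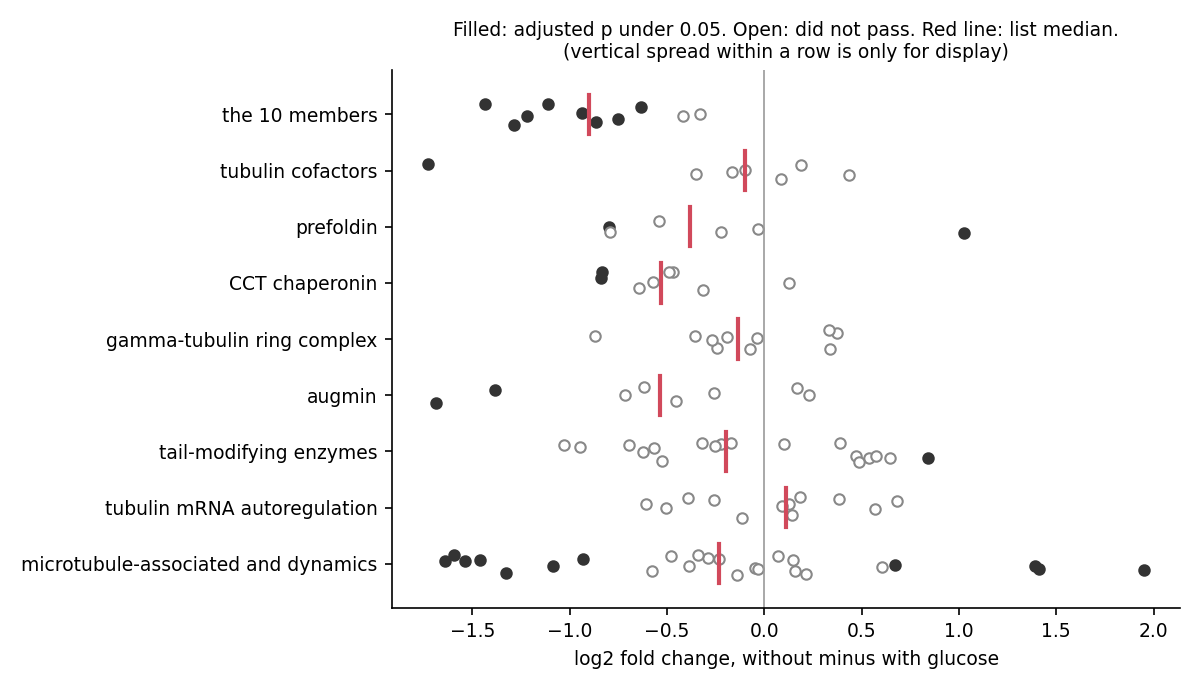
Fitted log2 fold change, without minus with glucose, of each tested gene in the 10 members and in 8 lists of their partners; filled circles had an edgeR adjusted p under 0.05, and red lines are list medians. The members' median lies at −0.90, and the list medians of the partners lie between −0.54 and 0.11.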

How the data were processed

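The authors deposited 1 table of raw read counts by gene for the 6 libraries; STAR, HTSeq and hg19 are named in the submitters' processing notes. Versions, annotation and strand setting: not given in the sources used here. Of the table's reads 43.1% to 44.7% fell in genes; the 5 HTSeq summary lines stayed out of all totals. Per the labels' protocols, cDNA was primed with barcoded oligo-dT, and no molecular identifiers are mentioned, so PCR copies count as reads. Entrez rows were named through a RefSeq gene table (GRCh38.p14), used for names only; no coordinates are given because the builds differ. Sequences come from GENCODE 29 transcripts, 1 per gene; coding ends of the alpha members are not reported here.

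Groups were compared with the quasi-likelihood test of edgeR 4.0.16 (R 4.3.3; TMM scaling, filterByExpr with a minimum count of 10, no covariate, two-sided, Benjamini-Hochberg adjustment over 11886 genes, threshold 0.05). The procedure was run on simulated counts in which every gene had the same spread, so that run does not cover genes or libraries with a spread of their own. SEs were worked back from log2 fold change and F statistic. Libraries of a group differed beyond sampling noise (chi-square per degree of freedom 22.1 to 57.3). All members are named, with other tubulin genes and, from each partner list, up to 3 called genes with the smallest p plus TTC5 and SCAPER; TTL, TTLL12, VASH2, MAP1A, MAP2, MAPT, marker genes and genes of dividing cells stand beside them. Members and lists were chosen with earlier results of these data known. Alternatives were RLE scaling, library totals, DESeq2 1.42.0, no filter, a mean of 20 counts, a replicate block and leaving out each library.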

Additional observations from a re-analysis of the deposited data

How the results depend on the processing

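All 8 members that fell did so with RLE scaling, with library totals, with DESeq2, with no filter and with a mean of at least 20 counts. With 1 library left out 4 to 7 fell (4 when replicate 1 or replicate 3 without glucose was left out), and 0 rose in any alternative. In the fits with 1 library left out 781 to 1232 of all genes tested fell, against 1276 with all libraries. Of 120 member values under the alternatives 104 kept their call, 16 lost it and 0 reversed. No shared culture or batch is given for replicate numbers. Same-numbered libraries did not deviate together (r = −0.32, −0.15 and 0.05 across genes), so the replicate block only shares a number. Libraries of different number gave r from −0.26 to 0.31, the highest for replicate 1 with glucose and replicate 2 without. With the block 6 members fell, TUBB (edgeR adjusted p = 0.0751) and TUBB3 (0.121) not passing. TUBB2B (0.0555) and PFDN6 (0.0642) did not pass either. Over the partner lists with the other tubulin genes, 15 genes fell and 9 rose, and the number tested is given with each list. Of all 11886 genes tested 10.7% fell and 11.6% rose, and the pooled lists were not tested against these shares. With the block 14 list genes fell and 6 rose, where 911 of all genes fell and 984 rose. With 1 library left out 11 to 18 list genes fell and 5 to 8 rose (5 on leaving out replicate 1 without glucose). There 781 to 1232 of all genes fell and 860 to 1292 rose. With TUBG2 added, the log2 ratio of gamma sums went from −1.29 to −1.05. Differences in share kept their sign for 7 isotypes; that of TUBB6 ran from −1.82 to 0.77 percentage points and that of TUBA4A from −0.10 to 0.79, both with 1 library left out, and that of TUBB was 2.56 but 0.99 with all beta rows as the total. Depth limits TUBA8 and the TUBA3 genes, at 18 counts or fewer per library.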

Other observations

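Genes for proteins that bind microtubules or govern their growth were called in both directions. By the edgeR quasi-likelihood test 4 of 25 genes rose, 7 fell and the other 14 did not pass (median log2 fold change −0.23). Over all 11886 genes tested 11.6% rose, 10.7% fell and the median was 0.02. In that list 2 rose when replicate 1 without glucose was left out. TACC3, which stabilizes spindle microtubules, had 148, 147 and 136 CPM with glucose and 46.0, 42.9 and 49.5 CPM without (log2 fold change −1.64 ± 0.19, edgeR adjusted p = 1.78e-04). STMN1, which encodes stathmin, a protein that binds tubulin dimers and destabilizes microtubules, had 210, 209 and 235 CPM with glucose and 62.1, 74.0 and 80.4 CPM without (log2 fold change −1.59 ± 0.20, edgeR adjusted p = 2.52e-04). For both genes the groups lay far apart, with every library without glucose the lower. MAP1B, a microtubule-associated protein best known from growing axons, rose from 968, 1487 and 1496 CPM to 4043, 2369 and 4111 CPM (log2 fold change 1.41 ± 0.25, edgeR adjusted p = 0.00228). Of other microtubule-associated proteins of neurons, named after their values were seen, MAP1A fell from 9.61, 12.3 and 14.1 CPM to 4.36, 4.90 and 3.90 CPM (log2 fold change −1.46 ± 0.26, edgeR adjusted p = 0.00239). MAP2 rose from 1.41, 1.25 and 2.39 CPM to 7.40, 6.43 and 6.33 CPM (log2 fold change 1.95 ± 0.36, edgeR adjusted p = 0.00253), and MAPT did not pass (log2 fold change 0.22 ± 0.37, adjusted p = 0.706). MAP1B without glucose stood at a mean of 3508 CPM, above the 748 CPM of TUBA1B in the same libraries. With glucose the order was the other way round, at 1317 CPM for MAP1B and 2022 CPM for TUBA1B. These levels were not divided by length, and TUBA1B is counted only from the stretches that are its own.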
